A study of Homo sapiens with 2 samples.

Results

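The PARP family is a group of enzymes that use NAD+ to attach ADP-ribose to proteins and nucleic acids. Of the 10 PARP genes asked about, 2 were named by the platform annotation, PARP1 and PARP2, each read by 1 probe set, out of 14884 named genes in all. The interferon-linked PARP9, PARP10, PARP12 and PARP14 and the other genes PARP4, PARP6, PARP8 and PARP16 carry no named probe set here, so 8 of the 10 were not analysed here. The intended comparison of interferon-linked with DNA-repair members therefore has values on the repair side only. Beside it stand DTX3L, the ubiquitin ligase that partners PARP9, and IRF9, an interferon-signalling factor.

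Messenger RNA was compared between HT1080 cells, an established human fibrosarcoma line, that received an shRNA against cMyc and HT1080 cells that received a non-targeting shRNA. Both were harvested 48 hours after infection with shRNA-carrying virus, so both groups share the infection. There was 1 Affymetrix Human Gene 2.0 ST array for each group, and the labels name no clone, no hairpin sequence and no uninfected cells. With 1 array per group no difference has a replicate check, no test was run, and each value describes these 2 arrays.

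PARP1 binds broken DNA and builds long poly(ADP-ribose) chains that recruit repair factors such as XRCC1, and PARP2 does the same at a subset of breaks. The tankyrases also build chains, and many other family members add single ADP-ribose units. PARP9, PARP10, PARP12 and PARP14 are known as genes that interferon induces, and PARP9 works with DTX3L, whose gene lies head to head with it.

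The promoter sequences of PARP1 and PARP2 are shown because these are the members with values. They are from RefSeq, build GRCh38.p14, on each gene's own strand, and cover the 250 bases before the start site at chr1:226408094-226408343 (minus strand) for PARP1 and chr14:20343385-20343634 (plus strand) for PARP2. Capitals mark a match to TTCNNNGAA, the gamma-activated site (GAS) that STAT dimers bind.
PARP1: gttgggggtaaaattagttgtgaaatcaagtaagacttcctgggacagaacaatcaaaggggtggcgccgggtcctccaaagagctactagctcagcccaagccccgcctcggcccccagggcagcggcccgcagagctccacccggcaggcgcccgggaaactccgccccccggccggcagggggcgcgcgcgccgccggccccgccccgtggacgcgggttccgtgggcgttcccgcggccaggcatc
PARP2: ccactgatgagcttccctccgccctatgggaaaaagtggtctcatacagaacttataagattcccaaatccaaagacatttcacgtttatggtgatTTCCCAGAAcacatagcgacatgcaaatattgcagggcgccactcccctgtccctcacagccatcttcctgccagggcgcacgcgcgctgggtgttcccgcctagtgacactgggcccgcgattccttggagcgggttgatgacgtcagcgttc

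For the interferon-linked members, short stretches at or just before the start site are shown because they hold the doubled GAAA core of the interferon-stimulated response element, searched as GAAA, any 2 bases and GAAA again, on both strands. Capitals mark that core and, in PARP14, also a GAS match. The DTX3L stretch lies at chr3:122564312-122564341 (plus strand) and is shared with PARP9, which reads it from the other strand. The PARP14 stretch lies at chr3:122680790-122680838 (plus strand) and the PARP12 stretch at chr7:140062952-140062981 (minus strand).
DTX3L: ggagggacctccagggaagcGAAACTGAAA
PARP14: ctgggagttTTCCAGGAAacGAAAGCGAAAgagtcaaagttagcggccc
PARP12: tttcgccggcccggggccgcTTTCGGTTTC

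RefSeq windows of 250 bases before to 50 bases after a start site were given for 8 of the 10 members. The doubled GAAA core occurred in windows of PARP9, PARP12 and PARP14, which are all 3 of the interferon-linked genes that have a window. It occurred in 0 of the 2 repair members and in 0 of the 3 other members with a window, PARP6, PARP8 and PARP16. These counts are of genes, and of the 2 PARP9 windows only 1 held the core. Counted by window, 3.57% of all 35116 windows of the table held it. The core between DTX3L and PARP9 begins 6 bases before the DTX3L start, ends 3 bases past it and lies 32 to 41 bases before one of the 2 PARP9 starts. Between that PARP9 start and the DTX3L start lie 37 bases. PARP2 held 1 GAS match, which begins at position -154 from its start, and PARP1 held 0, against 7.66% of all windows. The canonical E-box of MYC and MAX, CACGTG, was in neither PARP1 nor PARP2, against 7.26% of all windows. The window of IRF9 held 0 doubled GAAA cores, 1 GAS match that begins at position -63 and 1 E-box that begins at position -71. These are matches of letters and no measurement of binding.

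PARP1 read lower on the cMyc shRNA array. Its log2 level was 8.42 with the control shRNA and 7.27 with the cMyc shRNA, which gives a difference of -1.15. That is 2.21-fold lower, or 45.2% of the control on a linear scale. PARP1 is the main enzyme that senses DNA strand breaks, and it accounts for most of the cell's poly(ADP-ribose).

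PARP2, its closest relative in function, also read lower. Its log2 level was 7.15 with the control shRNA and 6.47 with the cMyc shRNA, which gives a difference of -0.68, or 1.60-fold lower. Both members were thus lower on the cMyc shRNA array, and the median of the 2 differences was -0.91, against -0.012 over all 10258 measured named genes. A gene counted as measured when its mean over both arrays was at or above the median of all probe sets, 3.70 on the log2 scale.

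By the rule of size used here, at least 2-fold, 1 of the 2 members was lower and 0 were higher. The same rule put 3.997% of all measured named genes lower and 2.008% higher. A total of 287 measured genes had a lower difference than PARP1 and 945 a lower one than PARP2. Among the 500 measured genes nearest in level, 14 had a lower difference than PARP1 and 82 a lower one than PARP2.

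The gap between the PARP1 and PARP2 differences was 0.47 on the log2 scale. The nearest thing to a repeat measurement in the data is between probe sets that share a gene symbol. Such probe sets may read different transcripts, so they are not true repeats. Over 416 genes with several measured probe sets, the SD of 1 log2 difference was 0.34, and that of a gap between 2 of them 0.48. It is called the technical SD here. The gap between the 2 members was no larger than this, so by this measure the order of PARP1 and PARP2 is not resolved. This SD may hold differences between transcripts, and it leaves out variation between cultures and infections.

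**Figure D1:**
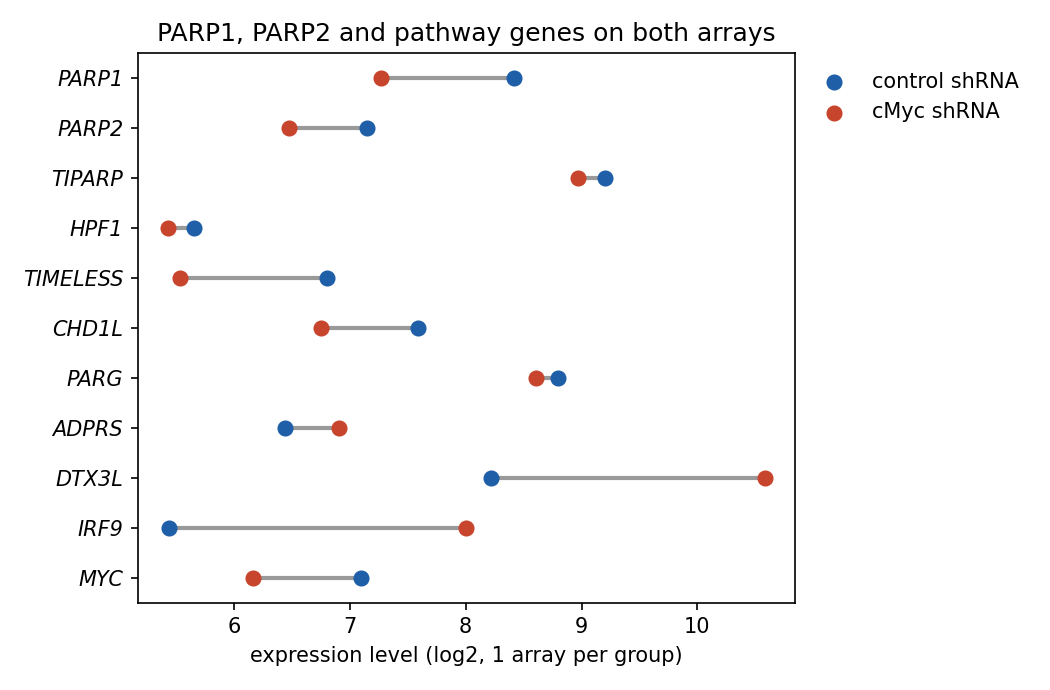
Log2 expression level (horizontal axis) of PARP1, PARP2 and 9 other genes on the control shRNA array (blue) and the cMyc shRNA array (red), 1 array each. PARP1 goes from 8.42 to 7.27 and PARP2 from 7.15 to 6.47, while DTX3L goes from 8.21 to 10.6; levels of different genes come from different probes and are not comparable with each other.

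The MYC transcript, which the shRNA targets, had a difference of -0.93 (7.09 to 6.16), so its direction matched the label. The gaps from MYC to PARP1 and to PARP2 were smaller than the technical SD of a gap. Array medians over 53617 probe sets were 3.68 (control) and 3.73 (cMyc shRNA). Of the fixed mesenchymal markers 5 of 13 were named and 4 measured, with a median difference of 0.18. The 4 measured were fibronectin, FN1 (0.15), THY1 (0.36), LOX (0.21) and vimentin, VIM. The 3 probe sets of VIM had -0.59, -1.02 and -0.95, and the median uses the brightest, at -0.59. Of the epithelial markers 9 of 10 were named and 5 measured, with a median of -0.46. The adhesion gene EPCAM was among the 4 named ones below the level filter. The 5 measured were KRT8 (-0.68), KRT18 (-0.69), KRT19 (-0.46), CLDN3 (-0.17) and CLDN7 (0.53). The keratin KRT18 had -0.69 and 0.12 on its 2 probe sets. The median uses the brighter one, and its value depends on that choice. Of the leukocyte markers 5 of 11 were named and 3 measured, CD68 with 0.91, NKG7 with 0.35 and CSF1R with -0.81. The part of these markers in the PARP1 and PARP2 values was not tested. In such bulk RNA, fewer cells of a kind and less RNA per cell cannot be told apart.

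The measured genes whose pair of levels lay closest to that of PARP1 were CERK, a ceramide kinase, with a difference of -1.06, the calcium sensor NCS1 with -1.20, and GEMIN5, a component of the SMN complex, with -1.04. Likeness here is the distance over 2 arrays, which was 0.057, 0.074 and 0.084 on the log2 scale. Many genes can share a pair of values, so this names neighbours and no more.

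**Figure D2:**
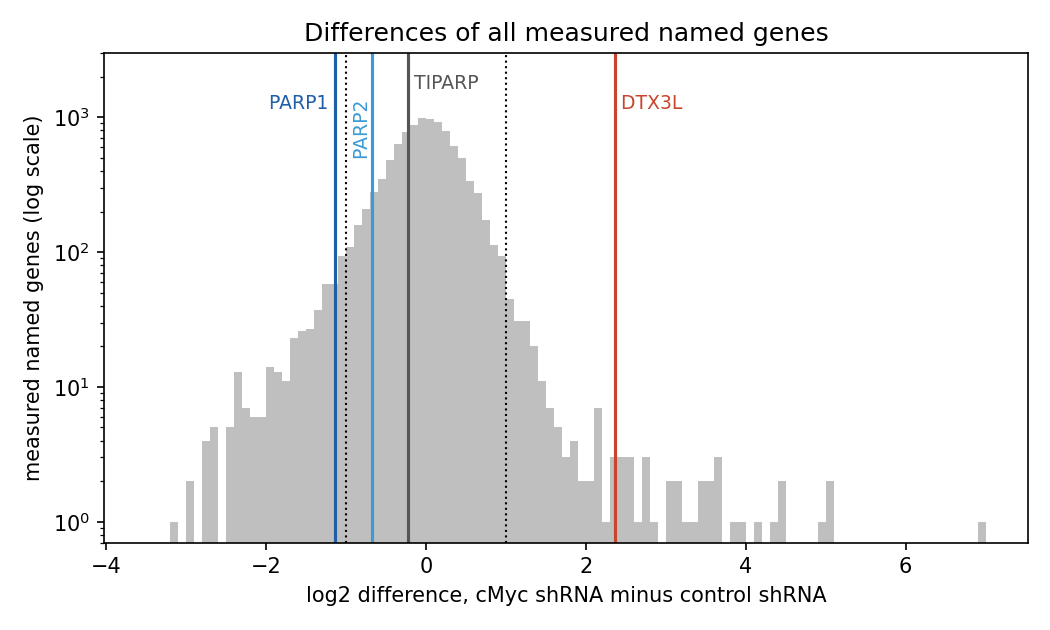
Number of measured named genes (vertical axis, log scale) by log2 difference, cMyc shRNA minus control shRNA (horizontal axis), with dotted lines at 2-fold. PARP1 (-1.15) lies beyond the lower 2-fold line and PARP2 (-0.68) and TIPARP (-0.23) inside it, while DTX3L (2.37) lies in the thin upper tail.

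Outside the 10 members, 1 of 7 further family genes was named. TIPARP, also called PARP7, is a mono-ADP-ribosyltransferase induced through the aryl hydrocarbon receptor. Its log2 level was 9.20 with the control shRNA and 8.97 with the cMyc shRNA, and the difference of -0.23 was smaller than the technical SD of 0.34. PARP3, PARP11, PARP15, ZC3HAV1, TNKS and TNKS2 have no named probe set here and were not analysed here.

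The partner of an interferon-linked member went the other way from PARP1 and PARP2. DTX3L, the ligase that forms a heterodimer with PARP9, had a log2 level of 8.21 with the control shRNA and 10.6 with the cMyc shRNA. The difference was 2.37, or 5.17-fold higher. Of the measured genes, 35 had a higher difference, and among the 500 nearest in level 2 had one. The DTX3L difference lay 3.51 above that of PARP1 and 3.05 above that of PARP2 on the log2 scale.

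DTX3L stood in a list of 8 genes of the PARP9 complex and interferon signalling, of which 4 were named and measured. The list was chosen with earlier results of these data known, so its counts are no independent support. The 2-fold rule put 2 of them higher and 0 lower, against 2.008% and 3.997% of all measured genes, and their median difference was 1.33. IRF9, the DNA-binding subunit of the ISGF3 complex, read 5.44 and 8.01, which is 5.94-fold higher. The receptor kinases stayed inside the technical SD, with JAK1 at 0.30 and TYK2 at -0.095. STAT2, IFNAR1 and IFNAR2 are among the listed genes without a named probe set here. DTX3L and IRF9 levels are not levels of PARP9, PARP10, PARP12 or PARP14, and no value here stands in for those genes.

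In the RefSeq gene order, PARP9, DTX3L, PARP15 and PARP14 lie in this order on chromosome 3, and DTX3L is the only gene of that stretch with a named probe set. On the side of PARP9 the nearest 3 named genes were the nuclear import receptor KPNA1 (0.21), WDR5B (0.30) and MIX23 (-0.48). On the side of PARP14 they were HSPBAP1 (0.0078), SLC49A4 (-0.0028) and the long noncoding RNA LINC02035 (0.16). None of these 6 neighbours reached 2-fold in either direction, whereas DTX3L was past it. Of all 10258 measured genes, 9642 did not reach 2-fold either, so the count of neighbours is near the share over all genes.

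**Figure D3:**
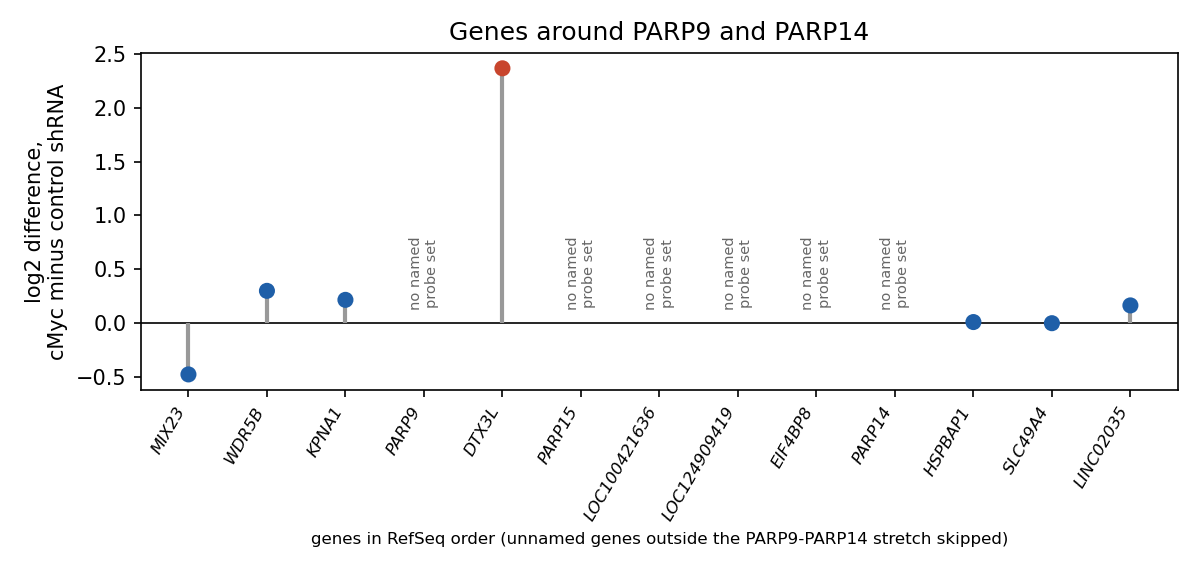
Log2 difference, cMyc shRNA minus control shRNA (vertical axis), of genes in RefSeq order around PARP9 and PARP14 (horizontal axis), 1 array per group. DTX3L stands at 2.37 and its 6 named neighbours lie between -0.48 and 0.30; genes without a named probe set are marked and carry no value.

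Transcripts of proteins that act with poly(ADP-ribose) or read it split in direction. Of 7 listed, 5 were named and measured. By the technical SD, 2 of the 5 were lower, 1 lay within it and 2 were higher. Over all 10258 measured genes these counts were 2398, 5800 and 2060. The 2-fold rule put 1 of the 5 lower and 0 higher, against 3.997% and 2.008% of all measured genes. The median difference of the 5 was -0.23, and it was -0.84 when only genes above the 75th percentile of level were kept. TIMELESS, a replication fork protein that binds PARP1, read 6.80 and 5.54, or 2.40-fold lower. CHD1L, a chromatin remodeler that poly(ADP-ribose) activates, had a difference of -0.84, and APLF, a repair factor with a poly(ADP-ribose)-binding zinc finger, had 0.87. APLF read 3.79 on the control array, just above the level filter of 3.70. HPF1, which joins PARP1 and PARP2 to direct their activity to serine, was nearest to 0 at -0.23.

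Genes of base excision and single-strand break repair, the pathway that PARP1 and PARP2 serve, were spread around a median difference of -0.20. Of 19 listed, 14 were named and 13 measured. Of those 13, 5 were lower by more than the technical SD, 7 lay within it and 1 was higher by more. Over all 10258 measured genes these counts were 2398, 5800 and 2060. The 2-fold rule put 2 of the 13 lower and 0 higher, against 3.997% and 2.008% of all measured genes. FEN1, the flap endonuclease, read 7.92 and 6.66, or 2.39-fold lower, and UNG, the uracil glycosylase, was 2.02-fold lower. TDP1, which removes stalled topoisomerase from DNA ends, was 1.997-fold lower, just short of the rule. XRCC1, the scaffold that poly(ADP-ribose) recruits, read 8.56 and 8.55, a difference of -0.0039. The highest member was TDG, a thymine glycosylase, at 0.61, named after its value was seen. LIG3, POLB, APTX and LIG1 are among the listed genes without a named probe set here.

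For genes that remove ADP-ribose, 9 of 11 listed were named and 8 measured, with a median difference of -0.10. The 2-fold rule put 0 of the 8 lower and 0 higher, which for so few genes is near the shares of 3.997% and 2.008% over all measured genes. Of the 8, 5 lay below 0, as did 5265 of all 10258. NUDT5, which hydrolyses free ADP-ribose, had -0.48, the serine ADP-ribosylhydrolase ADPRS 0.47 and OARD1, which removes ADP-ribose from glutamate, -0.43. NUDT16 was nearest to 0 at -0.083. PARG, the main enzyme that degrades poly(ADP-ribose), is named here after its values were seen. Its 3 probe sets had differences of -0.19, 0.16 and 0.068, all smaller than the technical SD.

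For genes that make or consume NAD+, 19 of 20 listed were named and 17 measured, with a median difference of 0.050. That median was 0.0040 after centring the arrays and 0.30 when only genes above the 75th percentile of level were kept. Of the 17, 10 lay above 0 and 7 below, against 4977 and 5265 of all measured genes. The 2-fold rule put 0 lower and 0 higher, again near the shares over all genes. The mitochondrial NAD kinase NADK2 had -0.84, and SARM1, an NAD+ hydrolase of neurons, had -0.76. NAMPT, the rate-limiting enzyme of NAD+ salvage, had 0.65 on its brightest probe set but -0.22 and -0.51 on the other two, so its direction depends on the probe set. SIRT2, an NAD+-dependent deacetylase, was nearest to 0 at 0.015.

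**Figure D4:**
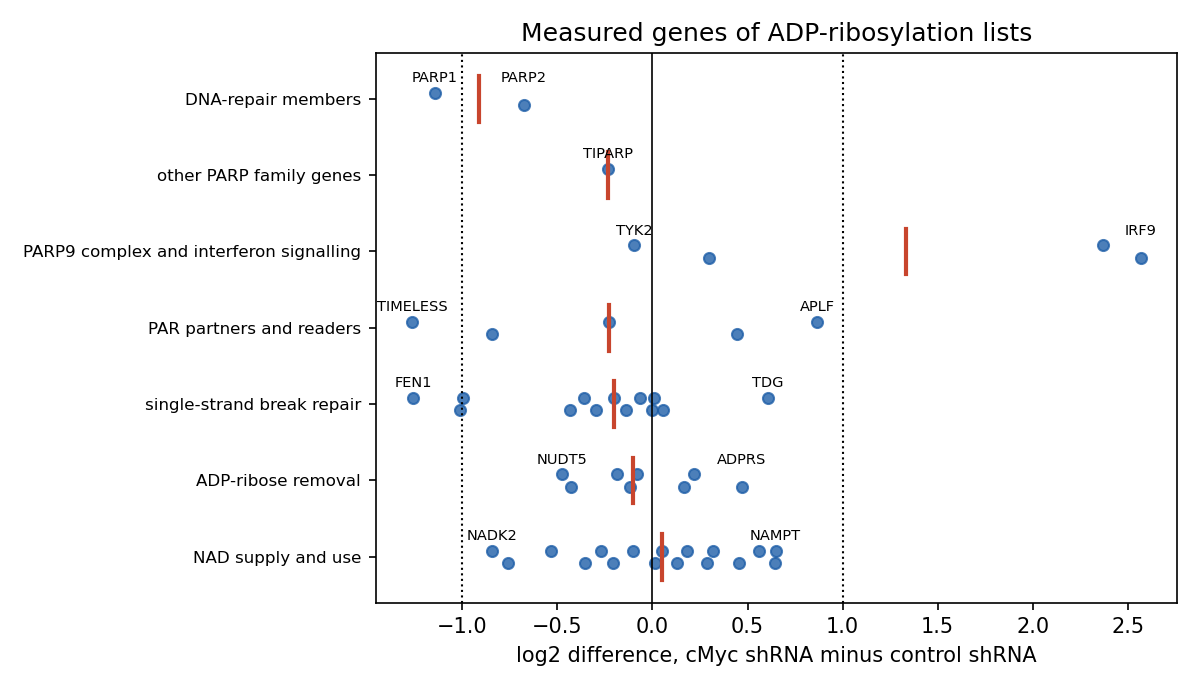
Log2 difference, cMyc shRNA minus control shRNA (horizontal axis), of each measured gene (blue points) in 7 fixed lists, with the list median in red, dotted lines at 2-fold and the lowest and highest gene of each list named. The repair members PARP1 and PARP2 lie at -1.15 and -0.68, and the medians of the removal and NAD+ lists lie at -0.10 and 0.050.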

How the data were processed

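The authors deposited log2 expression levels for 53617 probe sets on 2 arrays, made with Affymetrix Expression Console per the submitters' processing notes. Its version, normalization and summarization are not stated in the labels, and log base 2 was inferred from the range of 1.41 to 13.9. There are no detection calls, and having 1 array per group limits the precision.

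Genes came from GEO's platform annotation, which gave 1 symbol to 16098 probe sets, several to 0 and none to 37519. All 14884 named genes matched RefSeq identifiers of GRCh38.p14. The brightest probe set stood for a gene. Differences are the cMyc shRNA array minus the control array, with a fixed 2-fold rule and no test. Named were the members, other family genes, DTX3L and interferon signalling genes, 3 genes farthest from 0 and 1 nearest to 0 of each further list, chromosome neighbours of PARP9 and PARP14, and 3 genes with levels nearest to PARP1. Members and lists were chosen with earlier results of these data known. Other scalings, level filters, probe set rules, a 1.5-fold rule and means were tried. Protein sequences were not used here. The counting ran in Python 3.11.15 with pandas 2.3.3, and loess in statsmodels 0.14.6. Both were run on simulated data, with less noise than the technical SD and changes larger than those of PARP1 and PARP2. Recovery of changes of their size was not tested.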

Additional observations from a re-analysis of the deposited data

How the results depend on the processing

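Of 93 values under other settings, 91 stayed within the technical SD of 0.34 or, for counts, within 1.5 times. Many of these could not move, so this count overstates stability. PARP1, PARP2, TIPARP, DTX3L, IRF9 and MYC have 1 probe set each, so only the scalings could change their values. The mean of the 2 repair members equals their median by construction. PARP1 ranged from -1.19 to -1.09, PARP2 from -0.72 to -0.61, DTX3L from 2.32 to 2.42 and MYC from -0.98 to -0.87 over the 3 other scalings, 2 level filters and the mean over probe sets. At 1.5-fold, 2 members in place of 1 were lower, by construction. When only genes above the 75th percentile of level were kept, where APLF and other dim genes drop out, the median of the poly(ADP-ribose) partners was -0.84. Within the SD, the removal list changed sign at that filter (0.042) and the NAD+ list ranged from 0.0040 (centred) to 0.30 (that filter). The median of interferon-linked members and its comparison with repair members could not be run, since no interferon-linked member is named. Leaving out 1 of the 2 repair members leaves the difference of the other, -1.15 for PARP1 or -0.68 for PARP2. Leaving out an array leaves no comparison. No paired analysis was possible because each group has 1 array.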

Other observations

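PARPBP, named here after its value was seen and no member of the family, encodes a protein that binds PARP1 and restrains homologous recombination. Its log2 level was 6.47 with the control shRNA and 4.90 with the cMyc shRNA, which gives a difference of -1.57, or 2.97-fold lower, and 115 measured genes had a lower one.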
